A study of Mus musculus with 4 samples.

Results

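Genes of mitochondrial protein import and proteostasis were described in late 2-cell mouse embryos with and without depletion of Uqcc3, an assembly factor of respiratory complex III. The genes were chosen by name and not by their values. They are the numbered Tomm and Timm genes, which encode subunits and relatives of the translocases of the outer and inner membrane, and a fixed set of mitochondrial chaperones, proteases, presequence peptidases and prohibitins. The tables held 41 of them among 47445 gene identifiers. Of these, 40 reached 1 FPKM in 2 or more of the 4 libraries and so were among the 12390 genes tested. FPKM is the fragment number scaled to transcript length and library size. Tomm40l alone did not pass. Spg7, which the choice also names, is not analysed here.

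The embryos were C57BL/6N and came from females aged 8 weeks. The Uqcc3 siRNA group (2 libraries) received siRNA against Uqcc3 at 5 µM, and the control group (2 libraries) an equal dose of a negative-control siRNA. Both were injected at 8 hpi, as the protocols in the labels put it. For the controls, the labels give the treatment as "none", so the sources differ on whether they were injected. All embryos were collected at the late 2-cell stage, when the embryonic genome has become active, and only those of normal morphology were kept. RNA was primed with oligo(dT) and amplified as full-length cDNA. A transient siRNA lowers a transcript without deleting the gene, and the sources do not say how many embryos a library held. The endings of the sample titles differ between the groups, and if they mark a batch, batch and group cannot be told apart. The labels name no separate animals or days for the libraries of a group, so the p-values here reflect only the spread among 4 libraries, and that spread may be technical.

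Most mitochondrial proteins are made in the cytosol and are imported. The TOM complex receives them at the outer membrane. The TIM23 complex and its ATP-driven motor pull those with a presequence into the matrix, small TIM chaperones guide hydrophobic proteins across the intermembrane space, and the TIM22 complex inserts metabolite carriers into the inner membrane. Peptidases then cut off the presequence, chaperonins fold the product, and AAA+ proteases degrade what fails. Cleavage-stage embryos run on mitochondria inherited from the oocyte.

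The promoters of 5 genes picked for their values are shown. In Timm17a, Timm17b and Timm23 the siRNA and control values did not overlap, and the neighbouring chaperonin genes Hspd1 and Hspe1 were not ordered alike. Whether promoter sequence bears on these values was not tested. Each window runs from 250 bases before to 50 bases after the annotated start, 5′ to 3′, from RefSeq on GRCm38.p6. Capitals mark CCGGAAG (an ETS-family motif), GCATGCG (the core of the NRF1 motif) and CCAAT, on either strand. Overlapping matches run together, as in Hspe1.
Timm17a, chr1:135313688-135313987, minus strand: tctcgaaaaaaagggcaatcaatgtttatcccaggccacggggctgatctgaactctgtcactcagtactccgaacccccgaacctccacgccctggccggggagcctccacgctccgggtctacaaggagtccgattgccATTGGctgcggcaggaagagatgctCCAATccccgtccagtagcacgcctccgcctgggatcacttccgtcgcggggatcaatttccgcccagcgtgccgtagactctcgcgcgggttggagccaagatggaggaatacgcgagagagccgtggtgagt
Timm17b, chrX:7899086-7899385, plus strand: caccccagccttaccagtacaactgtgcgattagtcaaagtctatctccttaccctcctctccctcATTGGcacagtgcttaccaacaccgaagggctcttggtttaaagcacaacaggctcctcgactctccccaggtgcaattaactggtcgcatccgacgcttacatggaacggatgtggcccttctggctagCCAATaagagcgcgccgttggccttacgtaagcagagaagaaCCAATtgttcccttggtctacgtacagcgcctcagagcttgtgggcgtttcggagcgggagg
Timm23, chr14:32201842-32202141, minus strand: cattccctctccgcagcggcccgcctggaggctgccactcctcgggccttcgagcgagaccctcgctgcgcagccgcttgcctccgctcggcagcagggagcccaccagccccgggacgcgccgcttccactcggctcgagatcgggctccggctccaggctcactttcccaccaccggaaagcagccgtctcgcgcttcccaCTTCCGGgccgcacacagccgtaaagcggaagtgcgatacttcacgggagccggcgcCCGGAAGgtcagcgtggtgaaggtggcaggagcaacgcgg
Hspd1, chr1:55088194-55088493, minus strand: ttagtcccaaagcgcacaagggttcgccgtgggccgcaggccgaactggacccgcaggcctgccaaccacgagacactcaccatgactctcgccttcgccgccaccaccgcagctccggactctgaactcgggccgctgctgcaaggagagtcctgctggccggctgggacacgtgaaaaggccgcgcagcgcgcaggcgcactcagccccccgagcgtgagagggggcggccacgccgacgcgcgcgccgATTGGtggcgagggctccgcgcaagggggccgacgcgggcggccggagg
Hspe1, chr1:55087898-55088197, plus strand: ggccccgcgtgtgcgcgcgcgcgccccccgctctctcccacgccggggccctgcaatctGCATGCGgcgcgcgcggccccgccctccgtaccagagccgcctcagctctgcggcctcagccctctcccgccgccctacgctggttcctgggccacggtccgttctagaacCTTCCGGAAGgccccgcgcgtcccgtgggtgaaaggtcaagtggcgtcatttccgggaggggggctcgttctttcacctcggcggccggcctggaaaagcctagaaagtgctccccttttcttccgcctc
Timm23 held CCGGAAG at 2 places, and Timm17a and Timm17b held CCAAT at 2 and 3 places. Hspd1 and Hspe1 lie head to head on chromosome 1 on opposite strands, with annotated 5′ ends that overlap, and their windows share 4 bases. Over the 38 windows that RefSeq gave for 35 of the 41 genes, CCGGAAG was found in 18 (47.4%), against 11.6% of 21263 windows of protein-coding genes. GCATGCG was found in 13.2%, against 4.44%, and CCAAT in 36.8%, against 38.2%. TATAAA was found in 7.89%, against 12.6%, and TGACGT (the CRE motif of ATF factors) in 7.89%, against 8.49%. These are matches of letters and were not tested.

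Uqcc3 stood at 23.7 and 19.8 FPKM in siRNA replicates 1 and 2, against 147 and 211 FPKM in control replicates 1 and 2, which is 12.1% of the control mean (log2 difference -2.97, SE 0.63, limma adjusted p = 0.745). Depth as implied by the FPKM bounds was near 11700000 and 11800000 fragments in siRNA replicates 1 and 2, against 16700000 and 18900000 in control replicates 1 and 2, from 580 to 709 genes with 1 annotated transcript. The fragments implied for each gene, whatever its number of transcripts, summed to 3900000 and 4200000 in siRNA replicates 1 and 2, against 6500000 and 6900000 in control replicates 1 and 2. siRNA replicate 2 stood apart. It held 9771 genes at 1 FPKM or more, against 11818 to 12202 in the other 3 libraries, and its log2 values correlated across genes with theirs at 0.651 at most. The best match of every other library reached 0.872 or more. The share of summed FPKM from mitochondrially encoded mRNAs was 17.9% and 3.41% in siRNA replicates 1 and 2, against 9.98% and 11.8% in control replicates 1 and 2. FPKM summed to 596011 and 436400 in the siRNA libraries, against 682974 and 695428 in the controls. Over all tested genes the median log2 difference stood at -0.39 as deposited, -0.08 after rescaling to TPM, -0.06 under median-of-ratios and 0.012 under quantile scaling. Of 10 listed markers of 2-cell embryos 9 were in the tables, and they summed to 902 and 418 FPKM in the siRNA libraries, against 1410 and 1737 FPKM in the controls. Oocyte markers summed to 1660 and 1226 FPKM with siRNA, against 1742 and 2040 FPKM in controls. Most of each sum was Oosp1, at 1401 and 859 FPKM with siRNA, against 1524 and 1795 FPKM in controls. Of the 8 oocyte markers 4 had a negative and 4 a positive log2 difference. Their median was 0.15, against -0.39 over all tested genes. Markers of cumulus cells summed to 1.30 to 8.05 FPKM with siRNA, against 3.47 to 14.1 FPKM in controls. Sperm markers summed to 0.245 to 25.8 FPKM with siRNA, against 10.7 to 19.3 FPKM in controls, and blood markers to 0.547 to 16.6 FPKM with siRNA, against 18.7 to 28.5 FPKM in controls. Blastocyst markers summed to 11.1 to 13.97 FPKM in the siRNA libraries, against 3.52 to 16.8 FPKM in the controls. Amh, Fshr, Alas2, Hbb-bs, Cdx2, Krt8 and Sox17 were at 0 in all 4 libraries. The part of these markers in the results was not tested.

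In limma, 0 of 40 import and proteostasis genes reached an adjusted p under 0.05, as did 0% of all 12390 tested genes (smallest adjusted p of these genes = 0.745). Both siRNA libraries were below both controls in 21 of the 40 genes (52.5%), against 30.0% of all tested genes, and above both in 0, against 8.60%. The other 19 overlapped. The median log2 difference was -0.75, against -0.39 over all tested genes. It was -0.34, -0.34 and -0.42 under TPM, median-of-ratios and quantile scaling, and without siRNA replicate 1 its offset from all tested genes was 0.055, against -0.36 with all libraries. An adjusted p above the threshold does not show that levels were equal. An unadjusted p under 0.05 was reached in limma by 5 genes with lower values (Tomm6, Tomm20l, Timm23, Timm17a and Trap1), where 5.21% of all genes did so, and by 0 with higher values, where 0.743% did (5.96% in either direction). Tomm20l, also among the 21, was at 0 in both siRNA libraries. It passed the filter only through the controls, so its place below them was fixed in advance. As these are RNA pools, fewer cells that express a gene and less RNA per cell cannot be told apart. With 2 libraries against 2, an exact permutation test of one gene cannot give a two-sided p below 0.333.

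**Figure D1:**
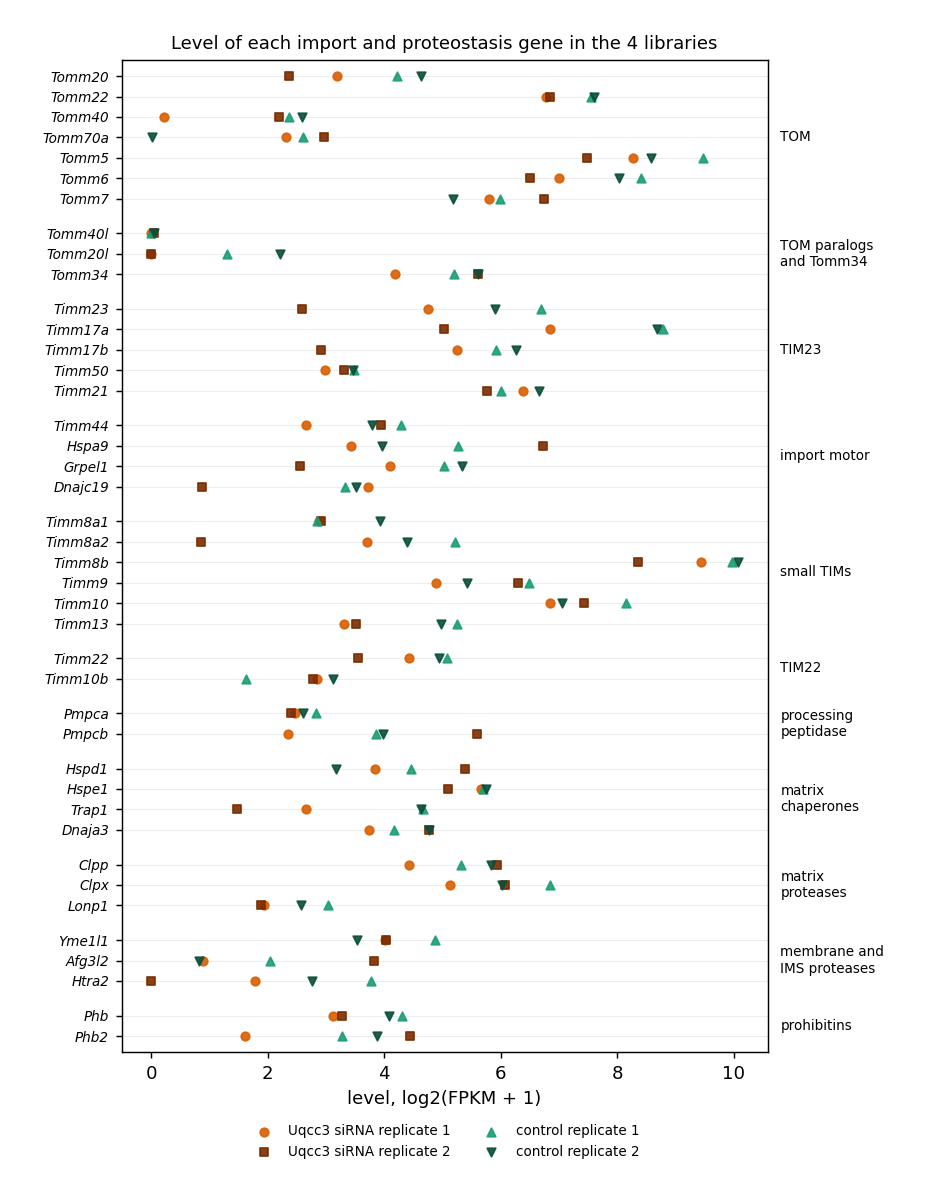
Level of each gene as log2(FPKM + 1) on the horizontal axis in siRNA replicates 1 (circles) and 2 (squares) and control replicates 1 (upward triangles) and 2 (downward triangles), with genes grouped by role. In Timm17a the siRNA libraries stand at 114 and 31.5 FPKM and the controls at 442 and 409 FPKM, while in Hspd1 the siRNA libraries, at 13.4 and 40.6 FPKM, overlap the controls, at 20.97 and 8.03 FPKM.

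The TOM complex forms the entry gate of the outer membrane. In 5 of its 7 genes both siRNA values were under both control values, against 30.0% of all tested genes. Of the 5, only Tomm20, Tomm22 and Tomm6 did so under all 3 scalings described below. Tomm20, the receptor for presequences, stood at 8.12 and 4.15 FPKM in siRNA replicates 1 and 2, against 17.6 and 23.8 FPKM in control replicates 1 and 2. Tomm22, the receptor that joins Tomm20 to the channel, stood at 109 and 114 FPKM with siRNA, against 185 and 194 FPKM in controls. The groups did not overlap in either gene, and the replicates of Tomm22 differed by 0.06 on the log2 scale within each group. Its log2 difference was -0.76 (SE 0.58, limma adjusted p = 0.780). The channel gene Tomm40 stood at 0.161 and 3.56 FPKM with siRNA, against 4.16 and 5.01 FPKM in controls. For siRNA replicate 1 the FPKM bounds implied only 0.3 fragments, which is not a count. The small subunits that steady the channel did not share a direction. Tomm6 stood at 127 and 89.3 FPKM in the siRNA libraries, against 337 and 260 FPKM in the controls. Its groups did not overlap (log2 difference -1.47, SE 0.59, limma adjusted p = 0.745). Tomm6 shares 859 exonic bases with Gm21981 on the same strand and 219 with Tomm6os on the opposite strand, so its value is uncertain. Tomm5 stood at 307 and 178 FPKM in siRNA replicates 1 and 2, against 709 and 382 FPKM in control replicates 1 and 2. Tomm7, which in yeast loosens the complex, stood at 54.8 and 106 FPKM with siRNA, against 62.4 and 35.1 FPKM in controls. Its groups overlapped. The second receptor, Tomm70a, which serves carrier proteins, stood at 3.97 and 6.85 FPKM in the siRNA libraries, against 5.09 and 0.0135 FPKM in the controls. Its position rested on control replicate 2, for which the FPKM bounds implied 1 fragment.

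The paralogs of TOM subunits had low levels. Tomm20l, a paralog of Tomm20, was listed at 0 in both siRNA libraries and stood at 1.47 and 3.66 FPKM in the controls. It shares 49 exonic bases with Timm9 on the opposite strand. Tomm40l, a paralog of Tomm40, was at or under 0.0416 FPKM in all 4 libraries, which places it below the channel gene Tomm40 in each. Tomm34, a cytosolic co-chaperone, stood at 17.2 and 47.6 FPKM in siRNA replicates 1 and 2, against 35.8 and 47.9 FPKM in control replicates 1 and 2, and its groups overlapped.

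In the TIM23 translocase 4 of 5 genes had both siRNA values under both control values, against 30.0% of all tested genes. Of the 4, Timm50 did not do so under any of the 3 scalings described below. The median log2 difference of the 5 was -2.01, against -0.39 over all tested genes, and it rested on siRNA replicate 2, at -3.18, more than on siRNA replicate 1, at -0.85. Timm17a, a channel subunit that is degraded under stress in human cells, stood at 114 and 31.5 FPKM in the siRNA libraries, against 442 and 409 FPKM in the controls. Its mean was 72.7 ± 58.2 FPKM with siRNA and 426 ± 23.3 FPKM in controls (SD, n = 2 each). The log2 difference was -2.80 (SE 0.74, limma unadjusted p = 0.00546, adjusted p = 0.745). Its paralog Timm17b stood at 37.0 and 6.52 FPKM with siRNA, against 59.4 and 76.1 FPKM in controls. Timm23, the presequence channel itself, stood at 25.9 and 5.02 FPKM with siRNA, against 103 and 58.6 FPKM in controls, with a log2 difference of -2.63 (SE 0.89, limma adjusted p = 0.745). In these 3 genes the groups did not overlap, and siRNA replicate 2 was the lowest library. Timm23 shares 104 exonic bases with Gm23946 on the same strand, and Timm17b 117 with Gm10491 on the opposite strand. The ratio of Timm17a to Timm23 was 4.40 and 6.28 in siRNA replicates 1 and 2, against 4.31 and 6.98 in control replicates 1 and 2. These siRNA ratios lay within the control range. The ratio of Timm17a to Timm17b was 3.08 and 4.83 with siRNA, against 7.45 and 5.38 in controls, without overlap. Timm50, the receptor of the complex, stood at 6.89 and 8.87 FPKM with siRNA, against 10.2 and 10.0 FPKM in controls, and its log2 difference of -0.33 was 0.063 after rescaling to TPM. Timm21, a regulatory subunit, stood at 82.3 and 53.6 FPKM with siRNA, against 63.1 and 100.2 FPKM in controls, and overlapped.

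The import motor was mixed. Grpel1, the nucleotide exchange factor of the motor, stood at 16.1 and 4.85 FPKM in siRNA replicates 1 and 2, against 31.6 and 39.1 FPKM in control replicates 1 and 2. The groups did not overlap (log2 difference -1.85, SE 0.84, limma adjusted p = 0.745). Grpel1 shares 411 exonic bases with Tada2b on the opposite strand. Hspa9, the ATPase that Grpel1 serves, stood at 9.84 and 105 FPKM in the siRNA libraries, against 37.5 and 14.6 FPKM in the controls. Replicate 1 was the lowest library of the 4 and replicate 2 the highest. The ratio of Hspa9 to Grpel1 was 0.611 and 21.6 in siRNA replicates 1 and 2, against 1.19 and 0.372 in control replicates 1 and 2. Dnajc19, a J-protein grouped here with the motor, showed the reverse order. It stood at 12.2 and 0.834 FPKM in the siRNA libraries, against 9.04 and 10.5 FPKM in the controls. Timm44, which tethers the motor to the channel, stood at 5.33 and 14.4 FPKM with siRNA, against 18.5 and 12.8 FPKM in controls. Over the 40 genes the median absolute gap between the siRNA libraries was 0.99 on the log2 scale, against 0.51 between the controls. Over all tested genes these gaps were 1.28 and 0.60.

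Small TIM chaperones included the gene with the highest FPKM of the 41 in every library. Timm8b stood at 695 and 324 FPKM in siRNA replicates 1 and 2, against 1002 and 1076 FPKM in control replicates 1 and 2. The groups did not overlap, and the log2 difference was -1.13 (SE 0.64, limma adjusted p = 0.745). Its partner Timm13 stood at 8.96 and 10.4 FPKM with siRNA, against 36.9 and 30.4 FPKM in controls, again without overlap, with replicates closer to each other than the groups were. Timm8a2 stood at 12.0 and 0.812 FPKM with siRNA, against 36.3 and 20.1 FPKM in controls. The remaining small TIMs overlapped between groups. Timm9 and Timm10, which form one hexameric chaperone, stood at 28.6 and 77.8 FPKM and at 114 and 172 FPKM with siRNA, against 88.7 and 42.0 FPKM and 284 and 132 FPKM in controls. Timm8a1 stood at 6.40 and 6.51 FPKM with siRNA, against 6.18 and 14.1 FPKM in controls. The ratio of Timm9 to Timm10 was 0.250 and 0.453 in siRNA replicates 1 and 2, against 0.313 and 0.318 in control replicates 1 and 2. Of the TIM22 route, the channel gene Timm22 stood at 20.6 and 10.8 FPKM with siRNA, against 32.9 and 29.8 FPKM in controls, without overlap. Timm10b, which docks small TIMs on TIM22, stood at 6.20 and 5.90 FPKM with siRNA, against 2.09 and 7.66 FPKM in controls, and overlapped.

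**Figure D2:**
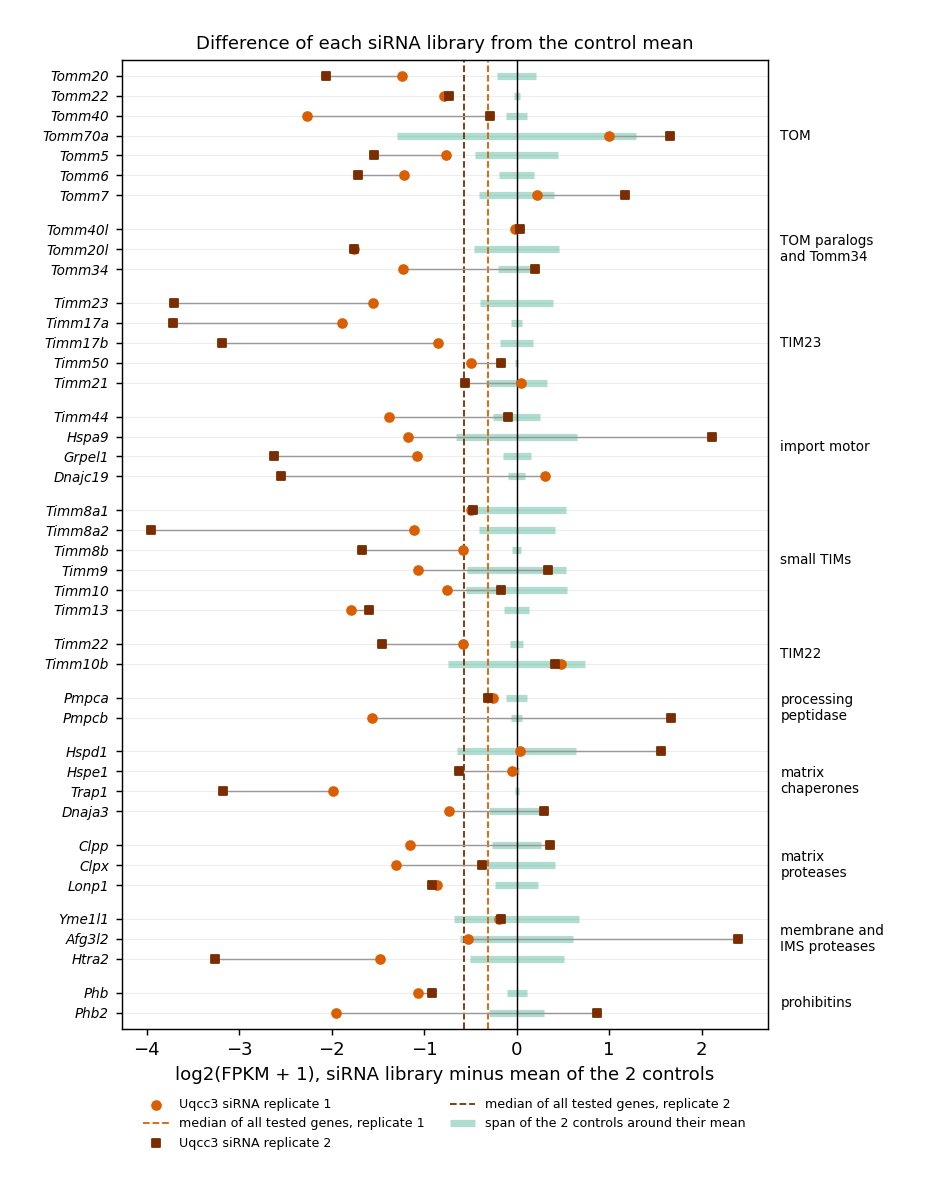
Difference of siRNA replicate 1 (circles) and siRNA replicate 2 (squares) from the mean of the 2 controls, as log2(FPKM + 1), with the span of the 2 controls as a green bar and the medians of all tested genes as dashed lines (-0.30 and -0.57). In Timm17a, Timm23 and Trap1 both siRNA libraries lie left of the bar, while in Hspa9, Pmpcb and Phb2 replicate 1 lies left and replicate 2 right of it.

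Of the 6 genes of presequence processing and matrix folding, Pmpca, Hspe1 and Trap1 had both siRNA values under both control values. Of all tested genes 30.0% did so. Under all 3 scalings described below, only Trap1 of these did so. Pmpcb, the catalytic subunit of the matrix processing peptidase, stood at 4.11 and 47.3 FPKM in siRNA replicates 1 and 2, against 13.5 and 14.8 FPKM in control replicates 1 and 2. Its partner Pmpca stood at 4.52 and 4.31 FPKM with siRNA, against 6.10 and 5.08 FPKM in controls, which is below both controls by a small margin (log2 difference -0.28, SE 0.94, limma adjusted p = 0.954). Its difference was 0.056 to 0.089 under the 3 scalings described below. The chaperonin gene Hspd1 stood at 13.4 and 40.6 FPKM in the siRNA libraries, against 20.97 and 8.03 FPKM in the controls, and the groups overlapped. Hspe1, its lid, stood at 49.9 and 33.2 FPKM with siRNA, against 50.8 and 52.7 FPKM in controls. Both siRNA values of Hspe1 were below both controls as deposited, its log2 difference of -0.34 was close to the -0.39 of all genes, and both lay above both controls after rescaling to TPM. Hspd1 and Hspe1, whose promoters are shown above, were thus not ordered alike. Their ratio was 0.269 and 1.22 in siRNA replicates 1 and 2, against 0.413 and 0.152 in control replicates 1 and 2. The pair shares 112 exonic bases, and the tables hold 3 named pseudogenes of Hspd1 and 5 of Hspe1, so their values are uncertain. Opposite-strand exons are also shared by Pmpca with Inpp5e (874 bases), Dnajc19 with Fxr1 (178 bases) and Trap1 with Dnase1 (54 bases). The same holds for Tomm40l with Nr1i3 (3304 bases), Timm10b with Arfip2 (277 bases) and Tomm40 with Gm20512 (258 bases). On the same strand, Timm10b shares 376 bases with Gm45799, Dnaja3 160 with Vasn and Phb2 155 with Gm23547. Hspa9 and Dnajc19 have 1 named pseudogene each. Of the 41 genes, 20 share an exon with another gene. Trap1, a mitochondrial relative of Hsp90, stood at 5.33 and 1.77 FPKM in the siRNA libraries, against 24.4 and 23.7 FPKM in the controls. Its mean was 3.55 ± 2.52 FPKM with siRNA and 24.1 ± 0.523 FPKM in controls (SD, n = 2 each), and the log2 difference was -2.58 (SE 0.91, limma unadjusted p = 0.0224, adjusted p = 0.745). Dnaja3, a J-protein of the matrix, stood at 12.4 and 26.2 FPKM with siRNA, against 17.0 and 26.2 FPKM in controls, with siRNA replicate 2 and control replicate 2 nearly equal.

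Proteases of the matrix and inner membrane differed gene by gene. Lonp1, the main matrix protease, stood at 2.85 and 2.71 FPKM in siRNA replicates 1 and 2, against 7.19 and 4.95 FPKM in control replicates 1 and 2, without overlap (log2 difference -0.89, SE 0.95, limma adjusted p = 0.830). Clpp, the peptidase of the ClpXP complex, stood at 20.5 and 60.2 FPKM with siRNA, against 38.8 and 56.2 FPKM in controls. Clpx, its unfoldase, stood at 34.1 and 66.0 FPKM with siRNA, against 114 and 63.9 FPKM in controls. Both Clp genes overlapped between groups, with siRNA replicate 1 the lowest library in each. Yme1l1, the protease facing the intermembrane space, stood at 15.2 and 15.4 FPKM with siRNA, against 28.4 and 10.6 FPKM in controls. Afg3l2, a subunit of the protease facing the matrix, stood at 0.865 and 13.2 FPKM with siRNA, against 3.11 and 0.766 FPKM in controls, and siRNA replicate 2 was its highest library. Htra2, a serine protease of the intermembrane space, stood at 2.46 FPKM in siRNA replicate 1 and was listed at 0 in siRNA replicate 2, against 12.7 and 5.76 FPKM in the controls. Htra2 shares 753 exonic bases with Aup1 and 535 with Loxl3 on the opposite strand. The prohibitins, which form a ring scaffold around inner membrane proteases, were not ordered alike. Phb stood at 7.75 and 8.70 FPKM in the siRNA libraries, against 18.7 and 16.0 FPKM in the controls, without overlap and with close replicates. Phb2 stood at 2.07 and 20.7 FPKM with siRNA, against 8.69 and 13.7 FPKM in controls, so that the ratio of Phb2 to Phb was 0.268 and 2.38 with siRNA, against 0.465 and 0.856 in controls. For Phb2 in siRNA replicate 1 the FPKM bounds implied 7 fragments, which is not a count.

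**Figure D3:**
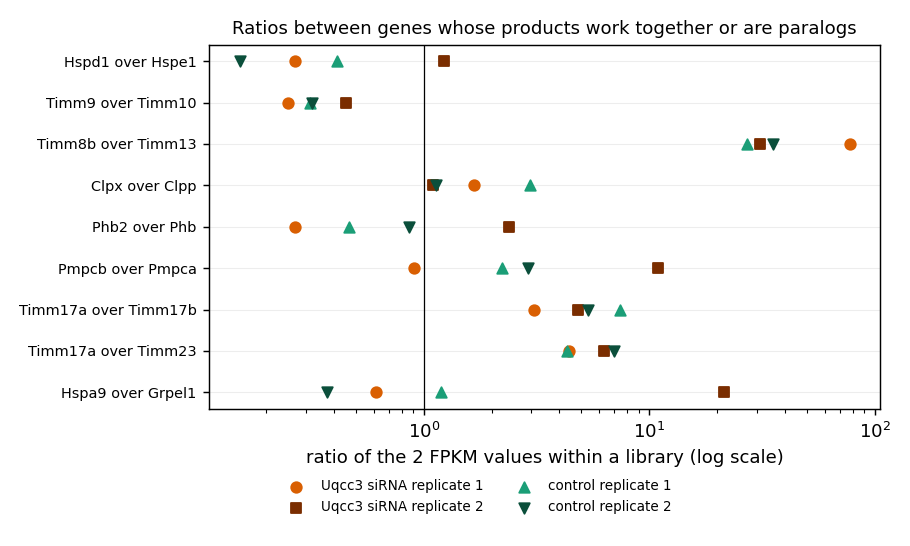
Ratio of the FPKM values of 2 genes within each library on a log axis, with siRNA replicates 1 and 2 as circle and square and control replicates 1 and 2 as triangles. For Hspa9 over Grpel1, Pmpcb over Pmpca and Phb2 over Phb the ratio in siRNA replicate 2 (21.6, 10.96 and 2.38) is the highest of the 4 libraries, while the Timm17a over Timm23 ratios lie between 4.31 and 6.98.

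The siRNA libraries did not order the genes alike. In siRNA replicate 1, 31 of 40 genes (77.5%) were under both controls and 1 (2.50%) over them, against 48.3% and 20.6% of all tested genes. In siRNA replicate 2, 23 lay below (57.5%) and 9 above (22.5%), against 50.5% and 32.0% of all tested genes. The median difference from the control mean was -0.96 and -0.52 in siRNA replicates 1 and 2, against -0.30 and -0.57 over all tested genes. Hspa9, Pmpcb, Dnaja3, Clpp and Phb2 lay below both controls in siRNA replicate 1 and above both in siRNA replicate 2 (12.5%, against 13.3% of all tested genes). Dnajc19 had the reverse order, as did 8.46% of all tested genes. By role, the TIM23 genes had medians of -0.85 and -3.18 in siRNA replicates 1 and 2, the TOM genes -0.79 and -0.73, the small TIMs -0.91 and -1.03, and the matrix proteases -1.15 and -0.37. When siRNA replicate 1 was left out, limma called 8 of the 40 genes, all lower (Tomm6, Timm23, Timm17a, Timm17b, Grpel1, Timm8a2, Timm8b and Trap1), where 9.68% of all tested genes passed lower and 2.24% higher. Their adjusted p ran from 0.0220 to 0.0496 in that fit and from 0.0220 to 1.00 over all alternatives. Without siRNA replicate 2, the log2 differences of the same 8 genes ran from -0.58 in Timm8b to -1.98 in Trap1. In both of these fits the lone siRNA library is assumed to vary like the controls.

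Transcript length moved with the difference in siRNA replicate 2. The 7 tested genes whose longest transcript is under 1000 bases, among them Timm8b, Timm10 and Tomm5, had median differences of -0.76 and -1.54 in siRNA replicates 1 and 2, against -0.31 and -1.47 over 2220 tested genes of that length. The 12 at 3000 bases or more had medians of -0.97 and -0.13, against -0.25 and 0.11 over 5441 genes. The median length was 2461 bases, against 2681 over all tested genes. The part of length in single genes was not tested.

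**Figure D4:**
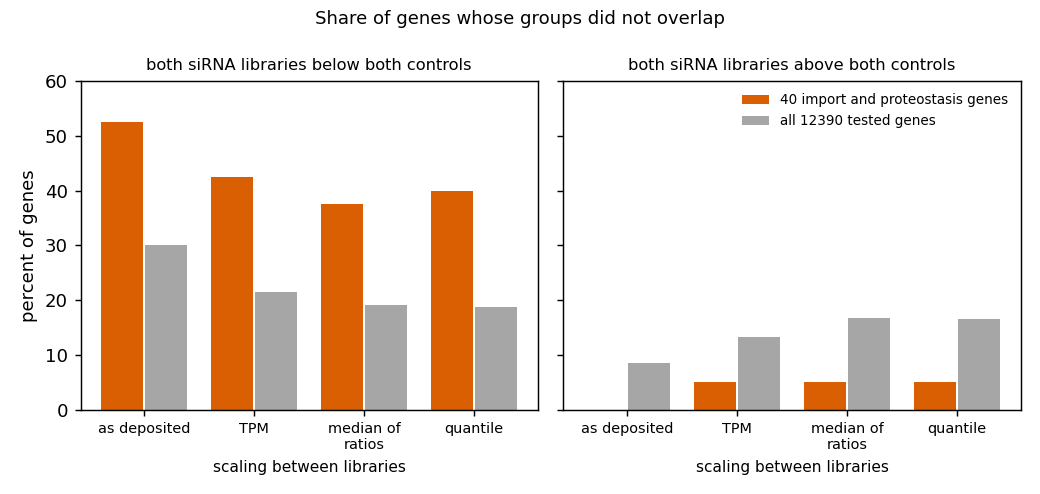
Percent of genes with both siRNA libraries below (left) or above (right) both controls, for the 40 import and proteostasis genes and for all 12390 tested genes, as deposited and under 3 scalings. The share below is 52.5% as deposited and 37.5% to 42.5% after scaling, against 30.0% and 18.7% to 21.4% of all tested genes.

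Fewer genes were below both controls after scaling between libraries, namely 17, 15 and 16 of 40 with TPM, median-of-ratios and quantile scaling, against 21.4%, 19.1% and 18.7% of all tested genes. A common set of 15 genes (37.5%) lay below as deposited and under all 3 scalings, where 15.8% of all tested genes did. They are Tomm20, Tomm22, Tomm6, Tomm20l, Timm23, Timm17a, Timm17b, Grpel1, Timm8a2, Timm13, Timm22, Trap1, Lonp1, Htra2 and Phb. Of these, Tomm20l passed the filter only through the controls. Tomm40, Tomm5, Timm50, Timm8b, Pmpca and Hspe1 were below as deposited but not under all of the scalings. Tomm7 lay above both controls under each of the 3 scalings, Tomm70a under median-of-ratios and quantile scaling, and Hspe1 with TPM. Above both controls lay 13.2%, 16.8% and 16.5% of all tested genes with TPM, median-of-ratios and quantile scaling.

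Other genes of the pathway, listed beside the named ones, did not pass either. The tables held 33 of them, of which 29 could be tested. In limma 0 passed, and 0 reached an unadjusted p below 0.05. Both siRNA values were below both controls in 9 (31.0%) and above in 1 (3.45%), against 30.0% and 8.60% of all tested genes. Mtx1, of the outer membrane sorting machinery, stood at 1.71 and 0.710 FPKM in siRNA replicates 1 and 2, against 9.74 and 5.89 FPKM in control replicates 1 and 2. Dnlz, whose human counterpart keeps Hspa9 soluble, stood at 9.35 and 2.67 FPKM with siRNA, against 26.9 and 17.8 FPKM in controls. Both were below without overlap. Chchd4, the oxidoreductase that traps small TIMs in the intermembrane space, stood at 2.74 and 1.86 FPKM with siRNA, against 6.25 and 3.03 FPKM in controls. Clpb, a disaggregase, was listed at 0 in siRNA replicate 1 and stood at 1.82 FPKM in siRNA replicate 2, against 6.69 and 2.49 FPKM in controls. Mipep, a presequence peptidase that trims after the first cut, was the tested gene above both controls, at 10.9 and 4.42 FPKM with siRNA, against 2.66 and 0.0870 FPKM in controls. Among cytosolic chaperones Dnaja1 stood at 12.8 and 24.2 FPKM with siRNA, against 35.8 and 33.2 FPKM in controls, and the other 4 overlapped. Of the transcription factors tied to the mitochondrial unfolded protein response, Ddit3 stood at 26.9 and 12.5 FPKM in the siRNA libraries, against 22.0 and 76.0 FPKM in the controls. Atf4 stood at 11.5 and 234 FPKM with siRNA, against 29.8 and 15.3 FPKM in controls. Hsf1 stood at 16.8 and 50.5 FPKM with siRNA, against 19.2 and 25.3 FPKM in controls. Atf4, Hsf1 and, among the cytosolic chaperones, Hspa8 and Hsp90aa1 were lowest in siRNA replicate 1 and highest in siRNA replicate 2, an order found in 13.3% of all tested genes. Atf5 stood at 0.202 and 2.52 FPKM with siRNA and was listed at 0 in both controls, and it did not reach the filter for testing.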

How the data were processed

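RNA of 4 libraries was compared, 2 per group, grouped by the treatment label. Each library has a deposited table of the authors' FPKM values with their lower and upper bounds, per the file headers. Cufflinks 2.2.1 and Cuffdiff 2.2.1, the aligner STAR 2.7.3a with mm10, SAMtools 1.7 and Trim Galore 0.6.5 are listed in the submitters' processing notes. The annotation release is not given there. Rows of one gene identifier were summed, and 99.1% of identifiers matched GENCODE M21, which gave strand, transcript length and shared exons.

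Genes that reached 1 FPKM in 2 or more of 4 libraries were tested, leaving out 2 with a failed estimate. Groups were compared in R 4.3.3 by limma 3.58.1, two-sided and with a mean-variance trend, on values of log2(FPKM + 1). P-values were adjusted over all tested genes by Benjamini-Hochberg, and the threshold was 0.05. Fold changes on this scale understate those of low genes. Depth was implied from the deposited FPKM bounds of genes with 1 annotated transcript and covers counting error only. The sources do not say whether counting used strand, so genes that share exons are uncertain. Values in every library were given for the gene with the highest control mean and the 2 with the smallest unadjusted p in each role, for a fixed set of chaperones, proteases and paralog pairs, and for the gene with the smallest unadjusted p in each list of other pathway genes. Values of the remaining genes, and of Atf4, Atf5 and Hsf1, were added after they were seen. The genes, roles and lists were chosen with earlier results of these data known. Alternatives were another pseudocount, other filters, 3 scalings, no trend and each library left out.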

Additional observations from a re-analysis of the deposited data

How the results depend on the processing

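No paired analysis was possible because the labels carry no replicate numbers. With both siRNA libraries and both controls in the fit, 0 import or proteostasis genes passed in limma under every pseudocount, filter, scaling and trend tried. Leaving out one library each, all passing genes numbered 0 to 1477, passing import and proteostasis genes 0 to 8, and those with an unadjusted p under 0.05 numbered 0 to 17, against 5 with all libraries. The highest values came without siRNA replicate 1. The 0 came without control replicate 2, and without control replicate 1 the count was 1. The count above both controls was 1 without siRNA replicate 2, against 20.6% of all tested genes, and 9 without siRNA replicate 1, against 32.0%. It was 5 without control replicate 1 and 2 without control replicate 2, fits for which no share of all tested genes is given. The count with an unadjusted p under 0.05 was 3 with median-of-ratios and 3 with quantile scaling. The share of all tested genes at that level is given only for the fit of all libraries as deposited. The counts at that level from the other fits are therefore not a result about the import and proteostasis genes. With all libraries, the count above both controls was 2 with TPM, 2 with median-of-ratios and 2 with quantile scaling. The shares of all tested genes were 13.2%, 16.8% and 16.5%. The median log2 difference of these genes was -0.34 with TPM, -0.34 with median-of-ratios and -0.42 with quantile scaling, against -0.75 as deposited. These scalings moved the median of all tested genes to -0.08, -0.06 and 0.012. Relative to the median of all tested genes it was -0.36 as deposited and -0.10 to -0.67 under the other filters, scalings and pseudocount. With one library left out it ran from -0.66 without siRNA replicate 2 to 0.055 without siRNA replicate 1.

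Among the 40 genes, the log2 difference of some changed sign, and the cause was not tested. With TPM, median-of-ratios and quantile scaling it was 0.17, 0.16 and 0.17 in Timm21, 0.065, 0.056 and 0.089 in Timm9, and 0.089, 0.076 and 0.056 in Pmpca. Likewise it was 0.086, 0.079 and 0.041 in Hspe1, 0.20, 0.19 and 0.092 in Dnaja3, 0.026, 0.017 and 0.014 in Clpp, and 0.24, 0.22 and 0.12 in Yme1l1. Timm50 was at 0.063 with TPM and 0.051 with median-of-ratios scaling, Timm10 at 0.10 with quantile scaling, and Pmpcb at -0.013 with a pseudocount of 0.1. With one library left out, Tomm34 ran from -1.22 to 0.20, Timm21 from -0.59 to 0.072, Hspa9 from -1.18 to 2.11, Dnajc19 from -2.55 to 0.30 and Timm8a1 from -1.02 to 0.053. Timm9 ran from -1.07 to 0.35, Timm10 from -1.01 to 0.084, Timm10b from -0.30 to 1.19, Pmpcb from -1.57 to 1.67 and Dnaja3 from -0.73 to 0.30. Clpp ran from -1.15 to 0.36, Yme1l1 from -0.85 to 0.49, Afg3l2 from -0.53 to 2.40 and Phb2 from -1.95 to 0.86. With 2 libraries a group and 1 that stands apart, small differences were not resolved. The FPKM bounds implied 28.2 and 21.4 fragments for Trap1 and 96.8 and 41.7 for Timm23 in siRNA replicates 1 and 2. Lower values were implied for Tomm40, Phb2 and Pmpcb in siRNA replicate 1, at 0.3, 7 and 13. The same held for Dnajc19 and Timm8a2 in siRNA replicate 2, at 1.8 and 8. Of these genes only Timm8a2 has 1 annotated transcript. Over all genes the implied fragments summed to less than the depth from genes with 1 transcript (3900000 against 11700000 in siRNA replicate 1). For genes with several transcripts they can thus understate the fragment number and are not counts. Orders and ratios that use these values are uncertain.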
